A study of Mus musculus with 20 samples.

Results

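The insulin-like growth factor (IGF) system is described here by 10 genes in the microvasculature of the mouse kidney. These are the ligand Igf1, the receptors Igf1r and Igf2r, and the 7 binding proteins Igfbp1 to Igfbp7, chosen by symbol from the 34255 genes of the deposited table. All 10 members passed the filter on low counts. The kidneys came from healthy, wild-type, young adult male C57BL6/OlaHsd mice. Header lines of the table mark all 20 libraries used as controls at 4 h, and the sources used here do not say to what the 4 h refer. Arterioles, glomeruli, post-capillary venules and peritubular capillaries were cut from cortical cryosections with a laser, and sections of whole kidney served as the reference. Each of the 5 groups held 4 libraries. The labels call them biological replicates but tie none to a mouse, and p-values therefore cover the spread among the samples as labelled. By the paper's methods, arterioles, glomeruli and venules of a mouse were cut from the same slide and capillaries from another. Libraries of different compartments can thus share a mouse. Since the labels do not say which do, the main tests took all libraries as independent. A cut area also takes in cells that touch the vessel, and in such bulk samples fewer cells of a type and less RNA per cell cannot be told apart.

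IGF1 is a growth factor that is made in the liver and in many tissues, and it signals through IGF1R, a receptor tyrosine kinase. IGF2R, which is also the mannose 6-phosphate receptor, takes up IGF2 for degradation and sorts enzymes to lysosomes. The binding proteins hold IGFs in the blood and between cells, where they can prolong the life of the ligand, keep it from its receptor or bring it close to the cell. In the kidney, IGF1 is known to raise renal blood flow and filtration.

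The libraries held between 4639090 and 12283098 counts of 3′ mRNA reads. Levels are given as counts scaled to a common library size (CPM, with TMM-scaled totals), and a library is called by its compartment and its number in the table (93, 96, 98 or 100, the order used for values). The markers of smooth muscle took 1.60 to 2.72% of counts in arterioles and at most 0.184% elsewhere, and those of podocytes 0.896 to 1.13% in glomeruli and at most 0.154% elsewhere. In peritubular capillaries, the 10 endothelial markers took 0.0399 to 0.0975% of counts, which overlapped with 0.0467 to 0.0521% in whole kidney. The 10 markers of proximal tubule took 8.21 to 10.6% there against 5.27 to 5.70% in whole kidney, and the 9 markers of loop, distal tubule and collecting duct 0.304 to 0.347% against 0.370 to 0.406%. The libraries labelled peritubular capillaries were thus higher than whole kidney in proximal tubule markers, lower in those of later tubule segments and not all higher in endothelial ones. In venules, the endothelial markers took 0.0559 to 0.112%, and the venous and capillary markers 0.0476 to 0.0597% against 0.0268 to 0.0316% in whole kidney, both above whole kidney in each library. The venous and capillary markers were also above whole kidney in each library of arterioles (0.0393 to 0.0898%) and glomeruli (0.0330 to 0.0604%). They therefore did not set venules apart from these compartments. Of these 6 markers, Ackr1 was at 0 in venules, arterioles and glomeruli. Arteriole 96 stood apart from the other arteriole libraries in several members below, and results that rest on it are also given without it.

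Of the 10 members, 4 were called higher in one compartment than in the other 3 (edgeR, FDR under 0.05). These were Igfbp2 in arterioles, Igfbp5 and Igfbp6 in glomeruli and Igf1 in venules. Of all genes, 8.11%, 2.46% and 0.369% were called higher in these compartments. Each of the 4 calls was lost under another setting or with a library left out, as given below. For these 4 genes, the 250 bases before the transcription start of RefSeq (build GRCm38.p6) are shown on the gene's own strand. They are the sequence next to that start, and their part in the levels was not tested. Capitals mark matches, on either strand, to the letters TATAAA (the TATA box), CCAAT or GGGCGG (a GC box), which do not overlap each other in these windows. Among 32817 such windows of all genes, 12.4% held TATAAA, 33.8% CCAAT and 32.7% GGGCGG.
Igf1, chr10:87860861-87861110, plus strand: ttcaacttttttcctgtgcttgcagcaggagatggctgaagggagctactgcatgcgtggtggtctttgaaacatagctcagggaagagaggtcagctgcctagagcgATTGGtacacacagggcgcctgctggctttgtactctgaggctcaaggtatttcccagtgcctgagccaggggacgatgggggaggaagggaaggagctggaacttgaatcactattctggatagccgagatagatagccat
Igfbp2, chr1:72824230-72824479, plus strand: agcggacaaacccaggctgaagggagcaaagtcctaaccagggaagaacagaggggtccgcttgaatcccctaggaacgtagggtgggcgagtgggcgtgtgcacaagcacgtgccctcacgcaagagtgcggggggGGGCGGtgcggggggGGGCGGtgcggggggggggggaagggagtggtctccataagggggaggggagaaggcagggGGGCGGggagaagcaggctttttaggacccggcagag
Igfbp5, chr1:72874866-72875115, minus strand: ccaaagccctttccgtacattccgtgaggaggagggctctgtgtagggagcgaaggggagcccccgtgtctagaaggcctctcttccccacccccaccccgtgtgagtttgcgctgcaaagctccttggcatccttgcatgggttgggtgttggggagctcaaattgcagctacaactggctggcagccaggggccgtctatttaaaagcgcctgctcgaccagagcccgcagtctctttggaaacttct
Igfbp6, chr15:102143936-102144185, plus strand: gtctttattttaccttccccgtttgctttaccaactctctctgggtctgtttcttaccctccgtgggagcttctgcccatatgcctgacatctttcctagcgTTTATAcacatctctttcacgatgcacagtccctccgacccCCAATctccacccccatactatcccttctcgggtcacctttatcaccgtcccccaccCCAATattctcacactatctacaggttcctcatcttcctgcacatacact

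The 4 windows shared no motif that all of them held. That of Igf1 had 1 CCAAT on the opposite strand, 142 bases before the start, and that of Igfbp2 had 3 GGGCGG between 37 and 113 bases before the start. The window of Igfbp6 held 2 CCAAT and, on the opposite strand, 1 TATAAA, and that of Igfbp5 held none of these letters. The RefSeq start of Igf1 lay 2846 bases inside the gene as annotated, so other starts exist for this gene. That of Igfbp6 lay 176 bases before the annotated gene. Which starts were used in these samples was not tested. In the GENCODE M21 annotation of GRCm38, the 4 genes are protein coding and span chr10:87858265-87937042 (Igf1), chr1:72824503-72852474 (Igfbp2), chr1:72857932-72874884 (Igfbp5) and chr15:102144362-102149511 (Igfbp6). Of the members, 2 pairs are neighbours with no gene between them. Igfbp2 and Igfbp5 lie 5457 bases apart on chromosome 1, and Igfbp1 and Igfbp3 lie 3539 bases apart on chromosome 11, each pair transcribed towards each other.

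Expression of the members was first compared with whole kidney. No member passed the test in any compartment (edgeR, FDR under 0.05 with a fold change of more than 1 in size on the log2 scale), that is 0 of 40 tests. Of all 13813 genes, 11.3% were called in arterioles and 3.06% in glomeruli, and 0.0941% and 0.224% in peritubular capillaries and venules. At an unadjusted p under 0.05 there were 12 of the 40, against 9.36 to 33.1% of all genes, and DESeq2 called 3 of the 40, against 2.27 to 27.7% of all genes. Counted by libraries that did not overlap, arterioles held 0 members above (8.45% of all genes) and 2 below whole kidney (28% of all genes), and glomeruli 1 above (14.6%) and 2 below (18%). In capillaries 3 members lay above (6.08%) and 1 below (18.3%), and in venules 2 above (5.81%) and 2 below (14.4%). These members are named with their values in what follows. Whole kidney libraries were made with fewer PCR cycles than microdissected ones, and this cannot be told apart from the comparison. The median log2 fold change of the 10 members against whole kidney was -0.01 in arterioles, 0.24 in glomeruli, 0.44 in capillaries and 0.09 in venules, beside 0.22, 0.25, 0.18 and 0.19 over all genes.

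Among the 4 compartments, none of the 60 pairwise tests passed (FDR under 0.05), and 17 had an unadjusted p under 0.05, against 11.2 to 28.6% of all genes. Over all 12179 genes, 2.19% were called between arterioles and glomeruli, 11.2% between arterioles and peritubular capillaries, 4.38% between arterioles and venules, 4.49% between glomeruli and peritubular capillaries, 1.22% between glomeruli and venules, and 0.411% between peritubular capillaries and venules. DESeq2 called 12 of the 60, against 6.06 to 27.1% of all genes. Each compartment was then compared with the mean of the other 3 on the log scale, and 4 of 40 tests passed, all of them higher. Igfbp2 was higher in arterioles, where 8.11% of all genes were called higher. Igfbp5 and Igfbp6 were higher in glomeruli, where 2.46% were called higher. Igf1 was higher in venules, where 0.369% were called higher, and no member was called in peritubular capillaries, where 4.3% of all genes were called higher. The plot of fold changes gives all of these values.

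**Figure D1:**
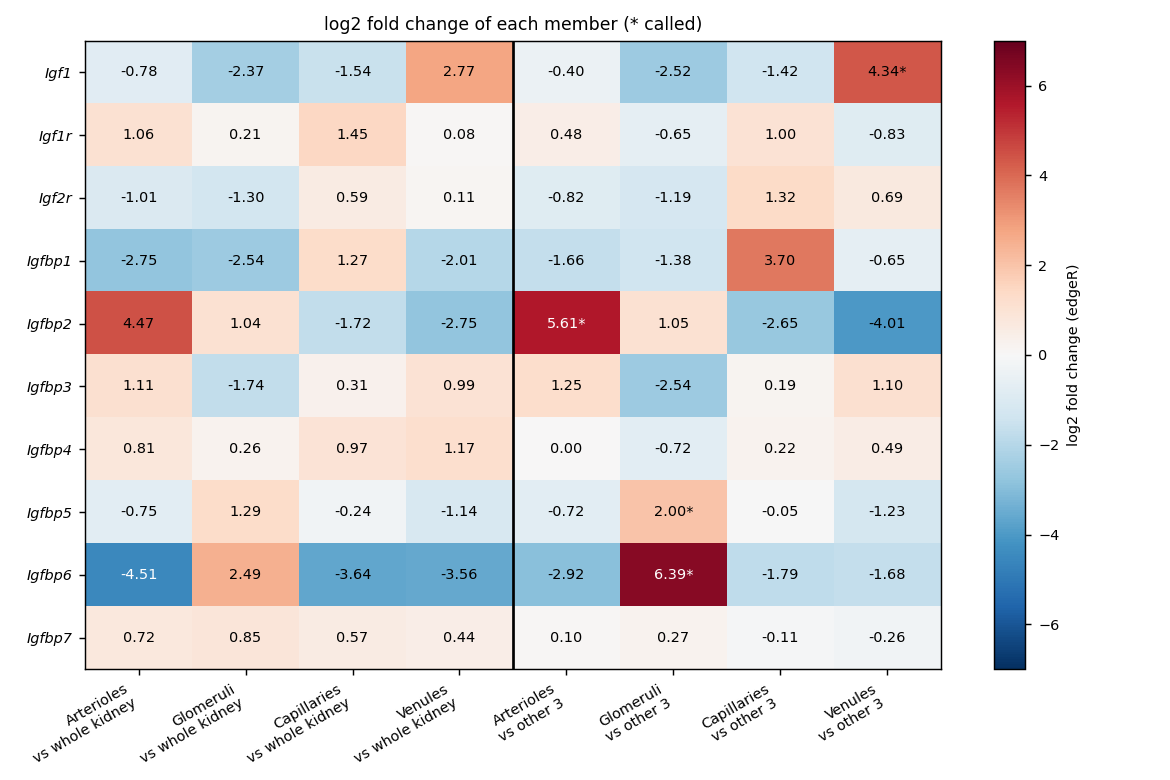
log2 fold change (edgeR) of each member (vertical axis) in each compartment against whole kidney (left 4 columns) and against the mean of the other 3 compartments (right 4 columns); red is higher and blue lower, and an asterisk marks a call. The 4 calls, Igf1 in venules (4.34), Igfbp2 in arterioles (5.61), Igfbp5 (2.00) and Igfbp6 (6.39) in glomeruli, are all in the right columns.

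The ligand Igf1 was highest in post-capillary venules. Venule libraries 93, 96, 98 and 100 held 187, 199.8, 199 and 144 CPM, and whole kidney libraries 31.9, 20.3, 24.2 and 30.5 CPM. Arteriole libraries held 31.5, 0.161, 24.5 and 6.07 CPM, glomerular libraries 10.3, 0.552, 3.58 and 6.18 CPM, and peritubular capillary libraries 2.86, 24.8, 8.74 and 0.196 CPM. The 4 venule libraries were close to each other (coefficient of variation 0.145) and lay above all 16 others, whereas the other compartments overlapped with each other and spread widely. Of all genes, 0.181% had every venule library above every library of the other 3 compartments.

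The mean of Igf1 was 182 ± 26.4 CPM in venules (SD, n = 4), 18.3-fold that of the other 12 microdissected libraries, and the log2 fold change against the mean of the other 3 compartments was 4.34 ± 0.92 (SE, adjusted p = 0.0130, edgeR). With at least 10 CPM in each venule library, Igf1 also met the minimum level set for a marker mRNA. Without venule 93, 96 or 98 the adjusted p rose above the threshold, to at most 0.0652, while the log2 fold change stayed between 4.20 and 4.75 whichever of the 16 libraries was left out. In the pairwise tests, Igf1 had a log2 fold change against venules of -5.14 in glomeruli (adjusted p = 0.0747), -4.32 in capillaries (adjusted p = 0.230) and -3.55 in arterioles (adjusted p = 0.113), none of which passed. All 3 were called by DESeq2 (adjusted p = 0.000623, 0.00706 and 0.0233), and those of glomeruli and capillaries also when just the 8 libraries of the contrast were fitted (adjusted p = 0.000161 and 0.0115).

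Some lists of markers of other cell types also differed between venules and other groups, while others overlapped. The 10 markers of fibroblasts and adventitia took 0.139 to 0.293% of counts in venules and 0.264 to 0.363% in arterioles, and 0.0448 to 0.0495% in whole kidney. Erythrocyte markers took 1.98 to 4.87% in venules and 1.06 to 4.16% in arterioles, and the 9 markers of macrophages and leukocytes 0.0242 to 0.0649% in venules and 0.0217 to 0.0291% in whole kidney. Proximal tubule markers took 3.72 to 4.66% in venules, 0.677 to 1.94% in arterioles, 1.27 to 2.05% in glomeruli and 8.21 to 10.6% in capillaries. Markers of loop, distal tubule and collecting duct took 0.279 to 0.426% in venules and 0.304 to 0.347% in capillaries. They took at most 0.156% in arterioles and 0.145% in glomeruli. All markers of these lists were detected in venules, and their part in the level of Igf1 was not tested. Igf1 overlaps Igf1os on the opposite strand, and the strand setting of the counting was not given in the sources used here.

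Igf2, the other IGF ligand, was detected in only part of the arterioles. Arteriole libraries held 15, 0, 3 and 51 counts (3.20, 0, 0.337 and 9.10 CPM). There were 3 counts over the 4 whole kidney libraries and 0 in each library of the other 3 compartments, where 3 counts, the most that a count of 0 allows, would stand for 0.232 to 0.585 CPM in a library. These limits cover counting error only.

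**Figure D2:**
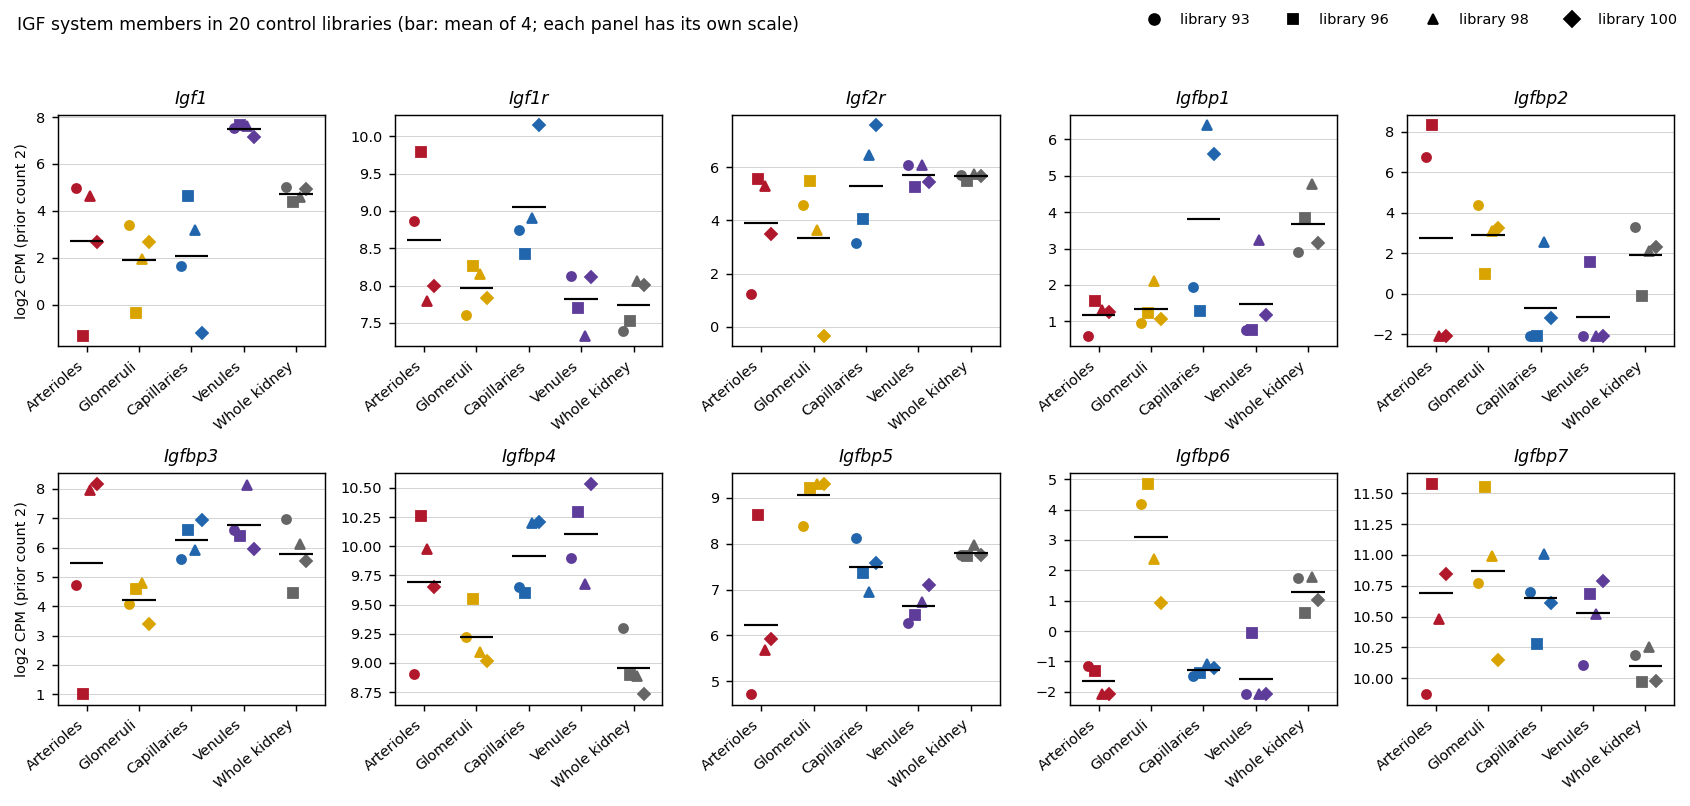
Level of each member (log2 CPM with a prior count of 2, vertical axis) in the 20 libraries by group (horizontal axis); each symbol is 1 library, the bar is the mean of 4, and each panel has its own scale. Igf1 sits highest in all 4 venule libraries, Igfbp2 is high in arterioles 93 and 96 and at 0 counts in arterioles 98 and 100, and Igfbp6 is above 3 counts in each glomerular and whole kidney library and in 1 other library.

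The signalling receptor Igf1r was detected in every library, and its group means spanned a ratio of 2.73. Peritubular capillary libraries held 429, 344, 481 and 1133 CPM, all above the 167, 183, 267 and 257 CPM of whole kidney. Arteriole libraries held 467, 882, 221 and 255 CPM, glomerular libraries 195, 307, 284 and 229 CPM, and venule libraries 278, 207, 160.1 and 278 CPM. The log2 fold change of capillaries against whole kidney was 1.45 ± 0.46 (SE, adjusted p = 0.264) and against the other 3 compartments 1.00 ± 0.39 (adjusted p = 0.115), and neither passed. The second of these was called once arteriole 96 was left out (adjusted p = 0.0341). In the order of means, from capillaries over arterioles, glomeruli and venules to whole kidney, all neighbours overlapped.

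The clearing receptor Igf2r varied widely within 3 of the compartments. Whole kidney libraries held 52.1, 44.3, 53.9 and 50.4 CPM and venule libraries 67.5, 38.4, 67.2 and 43.5 CPM. Peritubular capillary libraries ranged from 8.70 CPM (93) to 190.3 CPM (100), arterioles from 2.13 CPM (93) to 47.0 CPM (96) and glomeruli from 0.551 CPM (100) to 44.9 CPM (96). The coefficient of variation was 0.0830 in whole kidney and 0.284 in venules but 0.870 to 1.11 in the other 3. None of its 14 tests passed. Its gene overlaps the antisense transcript Airn, which the counts may not separate.

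Of the binding proteins, Igfbp1, which in the liver is held down by insulin, was highest in 2 libraries of peritubular capillaries. Capillary libraries held 3.60, 2.21, 83.4 and 48.5 CPM, and whole kidney libraries 7.19, 14.2, 27.0 and 8.69 CPM. Arterioles held 1.28 to 2.74 CPM and glomeruli 1.70 to 4.05 CPM, below every whole kidney library, and venules held 1.46, 1.46, 9.26 and 2.01 CPM. Capillaries 98 and 100 were set apart from 93 and 96, and the same 2 libraries were also the highest capillary libraries for Igf2r. The library numbered 98 was also the highest for Igfbp1 in whole kidney, glomeruli and venules, though not in arterioles. Proximal tubule markers took 10.6% of counts in both capillaries 98 and 100, above capillaries 93 (8.21%) and 96. Their part in the level of Igfbp1 was not tested. Against the other 3 compartments the log2 fold change in capillaries was 3.70 ± 1.32 (adjusted p = 0.0822), which did not pass in edgeR and passed in DESeq2 (adjusted p = 0.000655).

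Igfbp2 was high in only part of the arterioles. Arteriole libraries 93, 96, 98 and 100 held 516, 1994, 0 and 0 counts, that is 110.0, 321, 0 and 0 CPM, where 3 counts would stand for 0.335 and 0.531 CPM in libraries 98 and 100. Glomerular libraries held 20.5, 1.77, 8.42 and 9.26 CPM and whole kidney libraries 9.82, 0.691, 4.11 and 4.72 CPM. In capillaries, only library 98 (5.597 CPM) held more than 3 counts, and in venules only library 96 (2.80 CPM). Arterioles and glomeruli therefore overlapped, as did arterioles and each other group.

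The mean of Igfbp2 was 108 ± 151 CPM in arterioles, an SD larger than the mean. Its log2 fold change in arterioles against the other 3 compartments was 5.61 ± 1.44 (adjusted p = 0.00795), but with 2 libraries at 0 it did not meet the minimum of 10 CPM. Without arteriole 96 the call was lost (log2 fold change 4.13, adjusted p = 0.134), so that 1 library decided it. Since several libraries of the other compartments were at 0, the fitted fold change depends on the prior count and is no bound. Smooth muscle markers took 2.72, 2.47, 2.21 and 1.60% of counts in the 4 arteriole libraries and fibroblast markers 0.264, 0.319, 0.267 and 0.363%. Venous and capillary markers took 0.0898, 0.0834, 0.0393 and 0.0468% and proximal tubule markers 1.11, 0.677, 1.38 and 1.94%. Of 13 marker lists, 4 (smooth muscle, mesangial and pericyte, venous and capillary, erythrocyte) were higher and 2 (podocyte, proximal tubule) lower in both arteriole libraries with Igfbp2 than in both without it, and 7 overlapped. Their part in the level of Igfbp2 was not tested.

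Igfbp3, the main carrier of IGFs in plasma, had the reverse pattern among arterioles. Arteriole libraries held 26.2, 1.77, 247 and 291 CPM, so that the 2 libraries without Igfbp2 were the highest for Igfbp3. Venule libraries held 97.0, 84.0, 279.6 and 61.2 CPM, capillaries 48.6, 95.7, 60.4 and 121 CPM, and whole kidney 124, 21.9, 70.04 and 46.2 CPM. Glomeruli were lowest with 16.8, 23.9, 27.7 and 10.4 CPM, below every venule and every capillary library. The log2 fold change of glomeruli against the other 3 compartments was -2.54 ± 0.91 (adjusted p = 0.126), and it was called without arteriole 96 (adjusted p = 0.0224), without a filter on low counts and in DESeq2. Across the 16 microdissected libraries, Igfbp2 and Igfbp3 had a Pearson correlation of log2 CPM of -0.83, the most negative of the 45 pairs of members. These points share their compartments. Arterioles 98 and 100, capillaries 93 and 96 and venules 93, 98 and 100 also share 0 counts of Igfbp2. Their log2 CPM of Igfbp2 is the floor that the prior count sets.

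Igfbp4, a binding protein that inhibits IGF action until it is cleaved by the protease PAPP-A, was abundant in every library. Venule libraries held 955, 1255, 819 and 1486 CPM and capillary libraries 805, 774.5, 1177 and 1181 CPM, all above whole kidney with 628, 477, 474 and 425 CPM. Arterioles held 478, 1225, 1006 and 803 CPM and glomeruli 598, 749, 545 and 517 CPM, and both overlapped with whole kidney. The log2 fold change against whole kidney was 1.17 ± 0.33 in venules (adjusted p = 0.205) and 0.97 ± 0.33 in capillaries (adjusted p = 0.266), and neither passed in edgeR. That of venules was called when only the 8 libraries compared were fitted. In arterioles the log2 fold change was 0.81 ± 0.33 (adjusted p = 0.0886), which did not pass in edgeR and was called in DESeq2. It changed sign to -0.19 with upper-quartile scaling, which moved the median of all genes there by -0.95.

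Igfbp5, which binds to the matrix as well as to IGFs, was highest in glomeruli. Glomerular libraries held 335, 589, 625 and 633 CPM, against 217, 211, 251 and 215 CPM in whole kidney. Capillaries held 279.6, 163, 122 and 189 CPM, venules 76.7, 86.8, 106 and 136 CPM, and arterioles 26.2, 394, 51.0 and 60.1 CPM. Each glomerular library thus lay above all libraries of whole kidney, capillaries and venules, and only arteriole 96 reached into their range, where it exceeded glomerulus 93.

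The mean of Igfbp5 in glomeruli was 546 ± 141 CPM, 3.87-fold that of the other 12 microdissected libraries, and the log2 fold change against the other 3 compartments was 2.00 ± 0.47 (adjusted p = 0.00856). The call held with any 1 library left out, with adjusted p from 3.7e-05 (without arteriole 96) to 0.0473, and it met the minimum level of a marker. In DESeq2 the adjusted p was 0.0615, above the threshold. Venules had the lowest mean, with a log2 fold change against whole kidney of -1.14 ± 0.58 (adjusted p = 0.556), but arterioles 93, 98 and 100 lay below every venule library and the mean of arterioles was higher only through arteriole 96. The pairwise contrast of glomeruli with venules gave 2.42 ± 0.66 (adjusted p = 0.0606), which did not pass in edgeR or in DESeq2 (adjusted p = 0.0509) and was called with upper-quartile factors, library totals alone, a filter of 10 CPM in 4 or more libraries and only the 8 libraries compared (adjusted p down to 0.000144). Without arteriole 96, Igfbp5 was called lower in arterioles against whole kidney (log2 fold change -2.29, adjusted p = 0.00204), against glomeruli (-3.53, adjusted p = 0.000449), against capillaries (-2.03, adjusted p = 0.0214) and against the other 3 compartments (-2.23, adjusted p = 0.00582).

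Igfbp6, which prefers IGF2 over IGF1, was detected mainly in glomeruli and at a low level. Glomerular libraries held 179, 260, 63 and 15 counts (17.9, 28.7, 4.91 and 1.65 CPM), and whole kidney libraries 31, 11, 47 and 19 counts (3.14, 1.27, 3.22 and 1.79 CPM). There were 2 counts over the 4 arteriole libraries, 5 over capillaries and 6 over venules, all of the last in venule 96. Every glomerular library exceeded all 12 other microdissected libraries, as for 1.43% of all genes, and overlapped with whole kidney. The mean was 13.3 ± 12.5 CPM in glomeruli and 2.36 ± 0.98 CPM in whole kidney.

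The log2 fold change of Igfbp6 in glomeruli against the other 3 compartments was 6.39 ± 1.58 (adjusted p = 0.0125), a value that depends on the prior count because most other libraries held at most 2 counts. Glomerular libraries 98 and 100 were below 10 CPM, so the gene was no marker by the minimum level. Without glomerulus 96 the adjusted p was 0.0510, just above the threshold. For both Igfbp5 and Igfbp6, the glomerular libraries also held the most podocyte markers (8 of 8 detected, 0.896 to 1.13% of counts), glomerular endothelial markers (4 of 4, 0.368 to 0.470%) and juxtaglomerular markers (2 of 2, 0.0934 to 0.199%). The 10 general endothelial markers were highest there as well, at 0.348 to 0.476% against 0.255 to 0.329% in arterioles. The part of these lists in either result was not tested.

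Igfbp7, which binds IGFs weakly and is known as a protein of endothelial cells and vessel walls, was abundant everywhere. Glomerular libraries held 1749, 2994, 2041 and 1136 CPM, arterioles 936, 3061, 1425 and 1836 CPM, capillaries 1659, 1242, 2064 and 1566 CPM, venules 1103, 1648, 1470.0 and 1768 CPM, and whole kidney 1168, 1005, 1219.6 and 1010.2 CPM. The means spanned a ratio of 1.80 from glomeruli to whole kidney, and all neighbours in the order of groups overlapped. Each capillary library lay above all whole kidney libraries, and none of the 14 tests passed. Igfbp7 overlaps Polr2b on the opposite strand.

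In terms of the whole family, the 10 members took 0.439 ± 0.119% of all counts in glomeruli, above the 0.262 ± 0.0329% of whole kidney in every library. The shares in arterioles (0.267 ± 0.0737%), capillaries (0.301 ± 0.0317%) and venules (0.329 ± 0.0390%) overlapped with whole kidney. Like those of the marker lists, these are shares of unscaled library totals. TMM factors were 1.21 to 1.34 in glomeruli and 1.14 to 1.22 in whole kidney. They were 0.545 to 1.02 in arterioles, 0.648 to 0.997 in capillaries and 0.888 to 1.17 in venules. The order of groups and the overlaps with whole kidney therefore differed in CPM. With the CPM of the members summed, every capillary and venule library also lay above all whole kidney libraries. Glomeruli did not have the highest mean there. Within the counts of the 7 binding proteins, the make-up differed by compartment. These shares compare a gene across groups, since reads are counted near the 3′ end and say nothing of protein.

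The share on Igfbp5 was 18.1 ± 6.92% in glomeruli (12.2 to 27.4%) and 11.8 ± 1.16% in whole kidney (10.05 to 12.6%), which overlapped, but only 3.53 ± 0.53% in venules, 3.35 ± 3.02% in arterioles and 6.69 ± 2.701% in capillaries, all of whose libraries lay below whole kidney. Igfbp4 took 39.3 ± 5.92% in venules, above whole kidney (26.2 ± 2.68%) in every library, and 19.5 ± 3.02% in glomeruli, below it in every library. Igfbp3 took 0.614 ± 0.171% in glomeruli, below the 3.285 ± 1.88% of whole kidney in every library. Igfbp7 took the largest share in every group, from 52.2 ± 2.40% in venules to 61.0 ± 8.21% in glomeruli, and each compartment overlapped with whole kidney. In arterioles, Igfbp2 took 6.97 and 6.41% in libraries 93 and 96 and 0 in the other 2, and Igfbp3 took 9.03 and 9.71% in libraries 98 and 100, as the plot of shares shows.

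**Figure D3:**
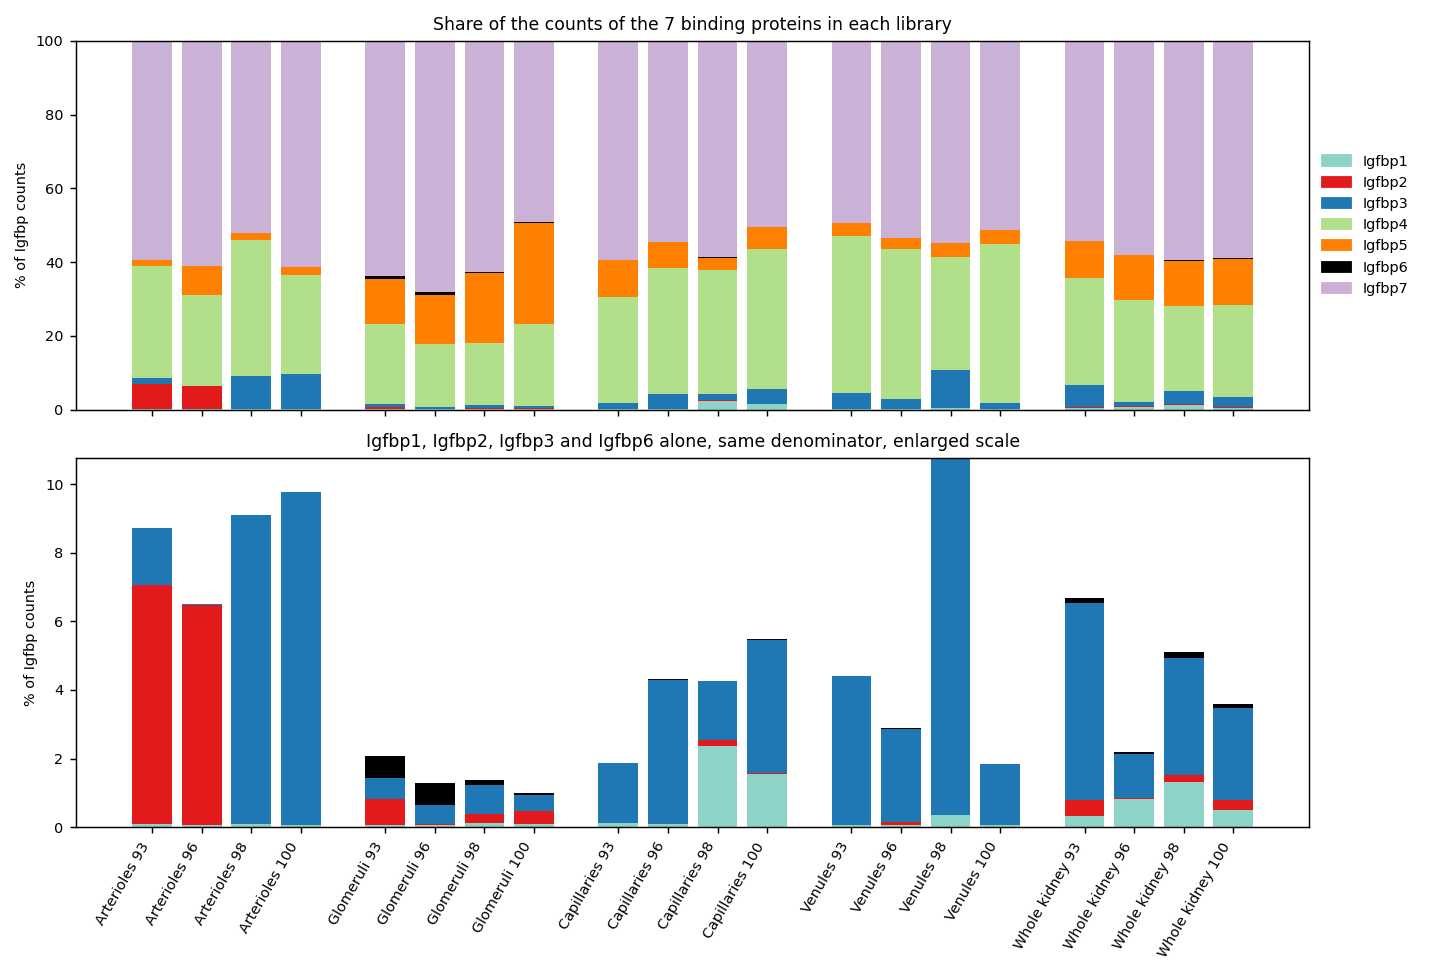
Share of the counts of the 7 binding proteins taken by each (vertical axis, percent) in the 20 libraries (horizontal axis), with all 7 in the upper panel and Igfbp1, Igfbp2, Igfbp3 and Igfbp6 on an enlarged scale below. In the lower panel, Igfbp2 fills most of the bar of arterioles 93 and 96 and Igfbp3 that of arterioles 98 and 100, while Igfbp3 is smallest as a group in glomeruli (0.449 to 0.850%).

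How far single libraries carried the calls is shown by leaving each out in turn. Igfbp5 in glomeruli passed in all 16 fits. Igfbp2 was lost without arteriole 96, Igfbp6 without glomerulus 96, and Igf1 without venule 93, 96 or 98, all of them libraries of the group in which the gene was higher.

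**Figure D4:**
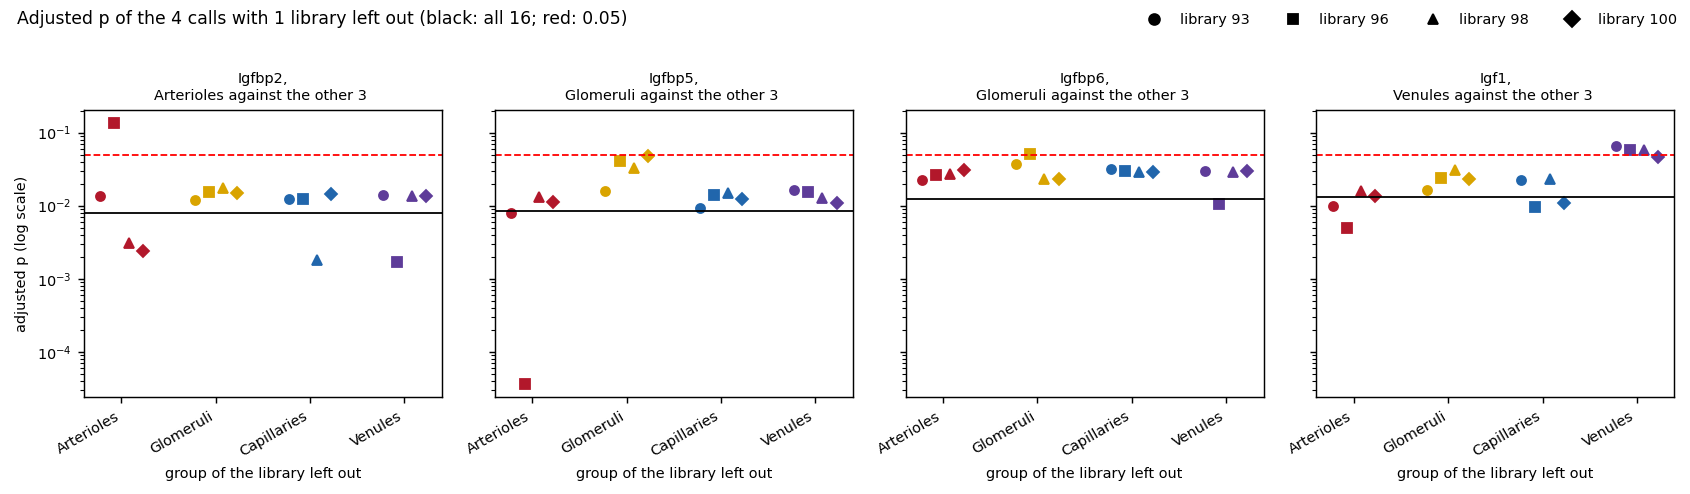
Adjusted p (edgeR, log scale, vertical axis) of the 4 calls with 1 of the 16 microdissected libraries left out, arranged by the group of that library (horizontal axis); the black line is the value with all 16 and the red dashed line the threshold of 0.05. Points above the red line are arteriole 96 for Igfbp2 (0.134), glomerulus 96 for Igfbp6 (0.0510) and 3 venule libraries for Igf1 (up to 0.0652).

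Of 44 other genes of the IGF pathway, 37 were tested against whole kidney and 36 among the compartments. In arterioles against whole kidney, 6 were higher and 1 lower, beside 11.3% of all genes called. In glomeruli 1 was lower, beside 3.06%, and in capillaries and venules none was called. Their median log2 fold change was 1.22 in arterioles, 0.71 in glomeruli, 0.34 in capillaries and 0.53 in venules, beside 0.22, 0.25, 0.18 and 0.19 over all genes. Among the pairwise contrasts, 4 were higher and 1 lower in arterioles against capillaries, 1 was higher in arterioles against venules, and 1 was higher and 1 lower in glomeruli against capillaries, beside 11.2%, 4.38% and 4.49% of all genes called. Against the other 3 compartments, 3 were higher in arterioles (8.11% of all genes), 1 was higher (4.3%) and 1 lower (2.91%) in capillaries, and none was called in glomeruli and venules.

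The growth hormone receptor Ghr, through which growth hormone induces Igf1, was lower in arterioles and glomeruli than in whole kidney and in capillaries. Ghr held 383, 346, 380.4 and 383 CPM in capillaries and 452, 359, 399.7 and 353 CPM in whole kidney, but 14.7, 107, 50.8 and 11.2 CPM in arterioles and 72.9, 40.2, 36.7 and 23.4 CPM in glomeruli. It was lower than in whole kidney by log2 fold changes of -3.09 ± 0.60 in arterioles (adjusted p = 0.000518) and -3.17 ± 0.60 in glomeruli (adjusted p = 0.000923), and higher in capillaries than in the other 3 compartments by 2.38 ± 0.51 (adjusted p = 0.00183). All 5 of its calls held under every alternative and with any library left out. The proximal tubule list moved the same way, at 0.677 to 1.94% of counts in arterioles, 1.27 to 2.05% in glomeruli and 8.21 to 10.6% in capillaries, and its part was not tested. Venules, where Igf1 was highest, held 121, 218, 229.7 and 162 CPM of Ghr, below every whole kidney library.

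Among signalling genes, the adaptor Grb2 (log2 fold change 2.83 ± 0.79, adjusted p = 0.0174) and the kinase Akt1 (2.07 ± 0.64, adjusted p = 0.0321) were higher in arterioles than in whole kidney, as was the protease Htra1, which cleaves binding proteins (1.77 ± 0.55, adjusted p = 0.0311). These 3 calls were lost with upper-quartile scaling and with library totals alone, and those of Akt1 and Htra1 also without a filter on low counts. Each was also lost when single libraries were left out. For Grb2 these were arteriole 96 (adjusted p = 0.180) and whole kidney 93, 96 or 100. Akt1 was lost without any 1 of the 4 whole kidney libraries (adjusted p up to 0.0940), and Htra1 without arteriole 98 or any 1 whole kidney library (up to 0.0956). The matrix protease Mmp2 was higher in arterioles than in the other 3 compartments (5.07 ± 1.11, adjusted p = 0.00166) and held with any library left out, while its call against whole kidney (adjusted p = 0.0442) was lost when arteriole 96, arteriole 100 or any whole kidney library was dropped (up to 0.106). Insr, the insulin receptor, was called in none of its 14 tests, and its largest log2 fold change in size was -3.05 ± 1.61 in arterioles against capillaries (adjusted p = 0.209).

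The genes whose pattern over the 16 microdissected libraries was most like that of a member were found by Pearson correlation of log2 CPM. For Igf1 these were Cela1 (0.79), Rnf186 (0.78) and Kxd1 (0.77). For Igfbp2 they were Kcnd3 (0.88), Nebl (0.86) and Inka1 (0.83). For Igfbp5 they were Prkca (0.81), Cd59a (0.79) and Hs3st3b1 (0.78), and for Igfbp6 Myl7 (0.92), Hs3st6 (0.91) and Rab3b (0.91). The closest genes to the others were Trip12 for Igf1r, Gapdh for Igf2r, Tmem59 for Igfbp1, Cdo1 for Igfbp3, mt-Co1 for Igfbp4 and Zfp868 for Igfbp7. Among the members themselves, Igf2r and Igfbp4 (0.75) and Igfbp5 and Igfbp6 (0.65) were most alike. All of these are descriptions over libraries that share their compartments.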

How the data were processed

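RNA was isolated from microdissected areas and whole kidney sections, and QuantSeq 3′ FWD libraries were made, with 24 PCR cycles for microdissected and 18 for whole kidney samples. The authors used bbduk for trimming, STAR for alignment to GRCm38.p6 and htseq-count for counts per gene. The submitters' processing notes also name featureCounts and the build GRCm39, with no role given. The deposited values are raw counts per gene, with no normalization. Neither strand setting nor molecular identifiers were given in the sources used here. Of 168 columns of the table, 20 were used and 148 were not. Columns were assigned to groups by header lines and by the letter of each name, and 3 lines without a gene were dropped. The number in a column name is not the replicate number of the labels.

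Tests used edgeR 4.0.16 in R 4.3.3 (TMM, filterByExpr by group, quasi-likelihood F test, form of version 3), with Benjamini-Hochberg adjusted p-values (FDR) over all genes tested. All 20 libraries were fitted for the contrasts with whole kidney (13813 genes), and the 16 microdissected libraries for those among compartments (12179 genes). A marker mRNA was in addition at 10 CPM or more in all 4 libraries of its compartment. SE is the log2 fold change divided by the root of F. The fits were tested on simulated data. Between 4639090 and 12283098 counts per library set the precision of low values, and limits for 0 counts (3 counts) cover counting error only. DESeq2 1.42.0, other scalings, other filters, the number as a block, only the 8 libraries compared and leaving out each library were the alternatives.

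Genes named were the 10 members, Igf2, Insr, called genes of a pathway list (up to 4 per contrast with the smallest p) and the 3 genes most like each member among those with a mean of at least 10 CPM. A pathway gene that this rule names is not reported here. Members and lists were chosen with earlier results of these data known. Of the planned tests, that of the shares of binding proteins is not reported, and shares are given as a description. Coordinates are from GENCODE M21 (GRCm38), counted from 1, and promoters from RefSeq (GRCm38.p6), where all 10 members had an entry.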

Additional observations from a re-analysis of the deposited data

Results flagged for a closer look

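With 4 libraries a group, 50 groups of a member could be tested for a library far from the rest of its group (Dixon's test at 95%). There were 9 such libraries. The test's rate of about 1 in 20 groups by chance holds for normally distributed values. These were unlogged CPM, some from libraries with few counts, so the number of such libraries cannot be read against that rate. For Igfbp5 these were arteriole 96 (394 CPM, highest), glomerulus 93 (335 CPM, lowest) and whole kidney 98 (251 CPM, highest). For Igfbp1 they were glomerulus 98 (4.05 CPM) and venule 98 (9.26 CPM), both highest. For Igfbp2 they were capillary 98 (5.597 CPM) and venule 96 (2.80 CPM), and for Igfbp6 venule 96 (0.729 CPM), in groups whose other libraries were at or below 3 counts. For Igfbp3 it was venule 98 (279.6 CPM), the library with the fewest counts.

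Relative to whole kidney, 2 members moved in opposite directions in venules and glomeruli. Igf1 was above every whole kidney library in each venule library (mean 182 CPM) and below in each glomerular library (mean 5.16 CPM), and the contrast of glomeruli with venules gave a log2 fold change of -5.14 ± 1.46 (adjusted p = 0.0747, edgeR). Igfbp5 was above in each glomerular library (mean 546 CPM) and below in each venule library (mean 101 CPM), with a log2 fold change of 2.42 ± 0.66 for that contrast (adjusted p = 0.0606). Neither contrast passed the threshold. That of Igf1 was called with no filter on low counts, in DESeq2 and with only the 8 libraries compared (adjusted p down to 0.000161), and that of Igfbp5 with upper-quartile factors, library totals alone, a filter of 10 CPM in 4 or more libraries and only the 8 libraries compared (down to 0.000144).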

How the results depend on the processing

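Against whole kidney, where 0 of 40 tests of members passed, upper-quartile factors and library totals alone gave 1 each, DESeq2 3 and a fit of only the 8 libraries compared 10. RLE size factors, both other filters, the block and a threshold without a minimum fold change gave 0. Of the 60 pairwise tests, 0 passed, against 2 with upper-quartile factors, 3 with library totals alone, 3 with no filter on low counts, 1 with a filter of 10 CPM in 4 or more libraries, 12 with DESeq2, 6 with only the 8 libraries compared and 1 with the replicate block. One compartment against the other 3 gave 4 calls, and 3 to 5 under the alternatives. With 1 library left out, the calls ranged from 0 to 1, from 0 to 5 and from 3 to 6 in these 3 families. The cause of these shifts was not tested, except that fits without a library hold fewer samples.

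No called fold change of a member changed sign under any alternative. Of all 140 fold changes of members, the sign changed in 22 with upper-quartile factors, 18 with library totals alone and 6 with the replicate block. It changed in 3 with RLE size factors, 3 with DESeq2 and 1 with the filter of 10 CPM in 4 or more libraries, which left some untested. None of these values was called. Of the 4 calls, Igfbp2 in arterioles was lost with the block (adjusted p = 0.264) and Igfbp5 in glomeruli with DESeq2 (adjusted p = 0.0615), and Igf1 held under all alternatives other than leaving out a library, as did Igfbp6 where it was tested, since the filter of 10 CPM in 4 or more libraries removed it. Of 21 calls of pathway genes, 89 of 379 alternative values lost the call and none changed sign.

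Over 12179 genes, no pairing of the microdissected libraries by the numbers in the column names was seen. Correlations of deviations from the group means between same-numbered libraries ran from -0.0133 to 0.0308 over 24 pairs, none over 0.1. This does not exclude that a number stands for a mouse, and whole kidney was not part of it. Igfbp2 ranked the numbers in the same order in glomeruli and whole kidney. Igfbp1 was highest in library 98 of every group but arterioles. The 3 genes most like a member depended on the measure, and with Spearman's correlation at most 1 of the 3 was shared for each of the 10 members. Depth limits Igfbp2 and Igfbp6, whose libraries at 0 allow up to 0.554 CPM.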

Other observations

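Genes of the IGF system outside the 10 members showed how uneven single libraries were. These 2 genes were chosen after their values were seen. Pappa, whose product PAPP-A cleaves IGFBP4 and IGFBP5, held 1197 counts (193 CPM) in arteriole 96 and 0, 7 and 2 counts in arterioles 93, 98 and 100. Arteriole 96 was also the highest arteriole library for 7 of the 10 members in CPM. Its TMM factor (0.545) was the lowest of the 20 libraries, and per library total alone it was the highest for 4 of the 10. Venules 93 and 96 held 273 and 206 counts of Pappa, and venules 98 and 100 held 1 and 0. Igfals, which encodes the acid-labile subunit of the circulating IGF complex, held 964 counts (119.8 CPM) in capillary 93 and 0, 0 and 1 in the other capillary libraries.

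In whole kidney the same 2 genes were even, with 3.54 to 8.03 CPM for Pappa and 7.46 to 13.4 CPM for Igfals. A high count in one library of a group and next to none in another was thus also found outside Igfbp2. Microdissected libraries were made with more PCR cycles than whole kidney libraries, and the part of this in the unevenness was not tested.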
